A study of Mus musculus with 16 samples.

Results

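Transcripts of 10 mouse genes that place, read or hold in place histone H3 lysine 9 (H3K9) methylation were followed in growing oocytes that lacked the histone deacetylase Hdac1, the deacetylase Hdac2, or both. The genes were Ehmt1, Ehmt2, Setdb1, Suv39h1, Suv39h2, Trim28, Cbx1, Cbx3, Cbx5 and Atrx. A probe set, the group of short array probes summarised as 1 value, belonged to the set when the platform's annotation gave it exactly 1 of these symbols. This held for 14 probe sets of 8 genes, among 21218 probe sets with 1 symbol and 35556 in the whole table. Cbx3 had 7 of the 14 and each other measured gene had 1. Suv39h1 and Suv39h2, both enzymes that trimethylate H3K9, had no such probe set and were not analysed here. No filter on low values was applied, so all 14 were tested.

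The groups were Hdac1/2 double-knockout, Hdac1 knockout, Hdac2 knockout and wild-type oocytes, with 4 arrays each. All came from ovaries of C57BL/6 mice 12 days old, and each sample pooled 80 oocytes. Per the labels, conditional alleles of either gene or of both were deleted by a Zp3-Cre transgene, which is driven by a promoter active in growing oocytes, so the deletion occurs after oocyte growth has begun. The labels do not say whether the wild-type mice carried the transgene or undeleted conditional alleles. A value for 80 pooled oocytes does not tell fewer transcripts in every oocyte from fewer oocytes that contain them.

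HDAC1 and HDAC2 are closely related enzymes that strip acetyl groups off histone tails, and an acetylated lysine 9 cannot carry a methyl group at the same time. EHMT1 and EHMT2 (also GLP and G9a) work together to mono- and dimethylate H3K9, largely in euchromatin, while SETDB1 trimethylates it at retrotransposons and other silenced sequences. SETDB1 is brought there by TRIM28 (KAP1), the co-repressor of KRAB zinc finger proteins. The mark is read by the HP1 proteins, HP1 beta, HP1 gamma and HP1 alpha, which are encoded by Cbx1, Cbx3 and Cbx5. ATRX is a chromatin remodeller that deposits the histone variant H3.3 at heterochromatin together with DAXX, and in mouse oocytes it is known to bind pericentric heterochromatin and to be needed for normal meiotic chromosome segregation.

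Of the 8 measured genes, 4 differed in the double knockout from each of the other 3 genotypes in the same direction: Atrx and Setdb1 were lower, and Cbx3 and Trim28 were higher. That pattern held for 26.3% of all tested probe sets, dim and bright alike. Their promoters are shown because these are the genes on which the results turn. The sequences are RefSeq's for assembly GRCm38.p6, the 250 bases upstream of the annotated transcription start, written 5′ to 3′ on the strand of the gene. They lie at chrX:105929373-105929622 on the minus strand for Atrx, at chr3:95357203-95357452 on the minus strand for Setdb1, at chr6:51470366-51470615 on the plus strand for the first of the pair of starts listed for Cbx3, and at chr7:13023902-13024151 on the plus strand for Trim28. Capitals mark matches to GGGCGG (the GC box) or CCAAT (the CCAAT box) on either strand, so that CCGCCC and ATTGG are matches on the opposite strand.
Atrx: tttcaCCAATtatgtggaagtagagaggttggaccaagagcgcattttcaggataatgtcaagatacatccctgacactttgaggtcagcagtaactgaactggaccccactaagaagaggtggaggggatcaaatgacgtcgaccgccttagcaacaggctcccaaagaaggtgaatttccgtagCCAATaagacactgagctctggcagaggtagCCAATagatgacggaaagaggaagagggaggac
Setdb1: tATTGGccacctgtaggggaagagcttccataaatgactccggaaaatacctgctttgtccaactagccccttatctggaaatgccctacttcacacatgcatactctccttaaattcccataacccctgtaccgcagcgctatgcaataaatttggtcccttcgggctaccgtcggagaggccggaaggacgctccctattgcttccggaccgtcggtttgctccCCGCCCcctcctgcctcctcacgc
Cbx3: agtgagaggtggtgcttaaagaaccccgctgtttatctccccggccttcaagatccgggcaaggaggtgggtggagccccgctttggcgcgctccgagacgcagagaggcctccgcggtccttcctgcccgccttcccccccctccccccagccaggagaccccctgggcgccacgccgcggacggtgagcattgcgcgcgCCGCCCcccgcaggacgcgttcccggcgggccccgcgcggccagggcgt
Trim28: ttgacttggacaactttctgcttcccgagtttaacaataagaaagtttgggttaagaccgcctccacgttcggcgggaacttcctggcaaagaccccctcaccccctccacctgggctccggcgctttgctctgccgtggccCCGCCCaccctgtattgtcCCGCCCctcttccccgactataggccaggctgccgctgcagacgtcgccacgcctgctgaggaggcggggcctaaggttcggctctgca

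The Atrx window stood apart from the other 3 in composition. It held 3 CCAAT boxes and no GC box, its G and C content was 48.4%, and its ratio of observed to expected CpG was 0.42. The Setdb1 window held 1 of each box and was 54.4% G and C. The Trim28 window held 2 GC boxes at 62.0% G and C, and the Cbx3 window held 1 GC box at 73.2% G and C. Over the 27025 genes with a window, 35.4% held a GC box and 37.5% a CCAAT box, and the median window was 52.4% G and C with a CpG ratio of 0.37.

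All 10 genes had at least 1 window, and Ehmt2, Suv39h1, Cbx3 and Cbx5 had 2. A GC box was found for 9 of the 10, all but Atrx, and a CCAAT box for 4, which were Setdb1, Suv39h1, Cbx5 and Atrx. Searched on both strands, CACGTG (the E-box) was found for Ehmt2 and Cbx5, against 6.86% of all genes, and TGACGTCA (the cyclic AMP response element) for Suv39h2 alone among the 10 and in 1.77% of all genes. No window of the 10 genes held TATAAA (the TATA box, 14.3% of all genes). Among the 4 genes shown, both that were lower in the double knockout held a CCAAT box and neither that was higher did. GC boxes stood in the windows shown for Cbx3, Trim28 and Setdb1 alike, and the other Cbx3 window held neither box. The CCAAT box of Setdb1 began 249 bases upstream, at the far edge of its window. Cbx5, which passed no comparison, also held a CCAAT box. Ehmt1 was called lower in the double knockout than in both single knockouts, and Cbx1 lower than in the Hdac2 knockout, and neither held one. With 4 genes, and a CCAAT box in 37.5% of all genes, this is a description of these windows.

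The deposited values were log2 brightness, with the base inferred from their range, and each fold change rests on that inference. Values for Hdac1 at its brighter probe set were 7.54 to 7.75 in double-knockout oocytes, 6.40 to 6.83 in Hdac1 knockout oocytes, 9.55 to 9.77 in Hdac2 knockout oocytes and 9.23 to 9.35 in wild-type oocytes. The arrays labelled as lacking Hdac1 therefore had less Hdac1 signal, though not to the same level. At that probe set the double knockout was 1.04 above the Hdac1 knockout (limma adjusted p 5.22e-08). The Hdac2 knockout was 0.36 above wild type (limma adjusted p 0.0172). The single Hdac2 probe set read 10.81 to 10.95, 11.05 to 11.16, 10.95 to 11.01 and 11.02 to 11.18 in the same order of groups. It was lower in the double knockout than in wild type (-0.21, limma adjusted p 0.00274) and than in the Hdac1 knockout (-0.25, limma adjusted p 0.000685). Every Hdac2 knockout array was below every wild-type array, by -0.10 on average, and that difference did not pass (limma adjusted p 0.33). No loss of the size seen for Hdac1 appeared at this probe set, and where its probes lie relative to the deleted exons is not given. All 10 oocyte markers, among them Gdf9, Bmp15 and Zp3, lay above the median of their arrays in every group. Pearson correlations across probe sets were 0.9952 to 0.9967 among double-knockout arrays, 0.9967 to 0.9979 among wild-type arrays and 0.9749 to 0.9796 between these genotypes, and no pair of arrays was identical.

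Across the whole table the double knockout was a large change. Between double-knockout and wild-type oocytes 38.3% of tested probe sets were called, that is, passed limma's moderated test at a Benjamini-Hochberg adjusted p under 0.05, with 18.5% higher and 19.8% lower. Of the set, 5 of the 8 genes and 10 of the 14 probe sets were called. The 38.3% is over dim and bright probe sets alike, whereas the 14 averaged 5.28 (Ehmt2) to 11.13 (Atrx) over the 16 arrays. The median of the array medians, over all 35556 probe sets, was 4.49. Shares of all tested probe sets, here and below, are therefore not like for like with the 14. An excess among the 14 was not tested. The arrays of the 2 genotypes did not overlap at 6 of the 14 probe sets, which report 4 genes, against 35.8% of all tested probe sets. The 14 are not independent, since 7 of them report Cbx3. Ehmt2, Trim28 and Cbx3 were higher in the double knockout, Setdb1 and Atrx were lower, and Ehmt1, Cbx1 and Cbx5 did not pass. Their changes were small: none reached 1.4-fold, the limit named in the study's design text, whereas 16.4% of all tested probe sets were called at 1.4-fold or more. The median change over the 8 genes, at the brightest probe set of each, was -0.03 on the log2 scale, against -0.01 over all tested probe sets. The median size of change, sign ignored, was 0.23 over the 8 genes and 0.15 over all tested probe sets, dim and bright alike.

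The 2 scalings tried as alternatives bear on changes of this size. Array medians were 4.54 to 4.59 in double-knockout oocytes, 4.47 to 4.49 in Hdac1 knockout oocytes, 4.48 to 4.51 in Hdac2 knockout oocytes and 4.46 to 4.48 in wild-type oocytes. Centring each array on its median, taken over all 35556 probe sets, moved every double-knockout change against wild type by about -0.09. The median change over the tested probe sets became -0.10, against -0.01 as deposited. With this centring 2895 probe sets were called higher and 6506 lower, against 3924 and 4198 as deposited. The 14 heterochromatin probe sets then gave 5 calls, 1 higher and 4 lower. Atrx and Setdb1 were called lower under both scalings, and Cbx3 at its brightest probe set was called higher under both. That Cbx3 call was narrow, with a limma adjusted p as high as 0.0467 among the alternative settings. The other bright Cbx3 probe sets, 10421573 and 10346549, lost the call with median centring (limma adjusted p 0.0658 and 0.105).

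The summed markers of granulosa cells and of blood, immune and endothelial cells were lower in double-knockout oocytes, mostly through Nr5a2 and Pecam1. The part of these markers in the results was not tested. The summed linear brightness of the 7 measured granulosa cell markers was 522 to 611 in double-knockout, 956 to 1090 in Hdac1 knockout, 872 to 961 in Hdac2 knockout and 976 to 1070 in wild-type oocytes. Of the 7, 1 was called higher in double-knockout than in wild-type oocytes (Inha, 0.59, limma adjusted p 0.021) and 2 lower (Nr5a2 and Kitl). Most of the sum was Nr5a2, which averaged 8.74 in double-knockout and 9.82 in wild-type oocytes. Foxl2, Fshr and Amh, which define the cell type, averaged between 3.43 and 4.78 in all groups. The sum of the 6 measured blood, immune and endothelial markers was 220 to 273, 436 to 509, 408 to 492 and 418 to 477 in the same order, and Pecam1 made most of it, at 7.04 in double-knockout and 8.42 in wild-type oocytes. Pecam1 was the 1 of the 6 called lower, and Cd68 was called higher (0.38, limma adjusted p 0.0283). Ptprc, Adgre1, Cdh5 and Kdr averaged between 3.27 and 3.85 in all groups. The sum of the 8 theca and stroma markers was 136 to 139, 132 to 142, 127 to 139 and 128 to 135, and 1 of the 8 was called, Acta2, which was higher (0.31, limma adjusted p 0.0144). Oocyte markers summed to 30700 to 31200, 31600 to 32000, 30700 to 31500 and 31300 to 32500, and 3 of 10 were called lower in double-knockout than in wild-type oocytes (Figla -0.56, Ddx4 -0.32 and Dazl -0.17).

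**Figure D1:**
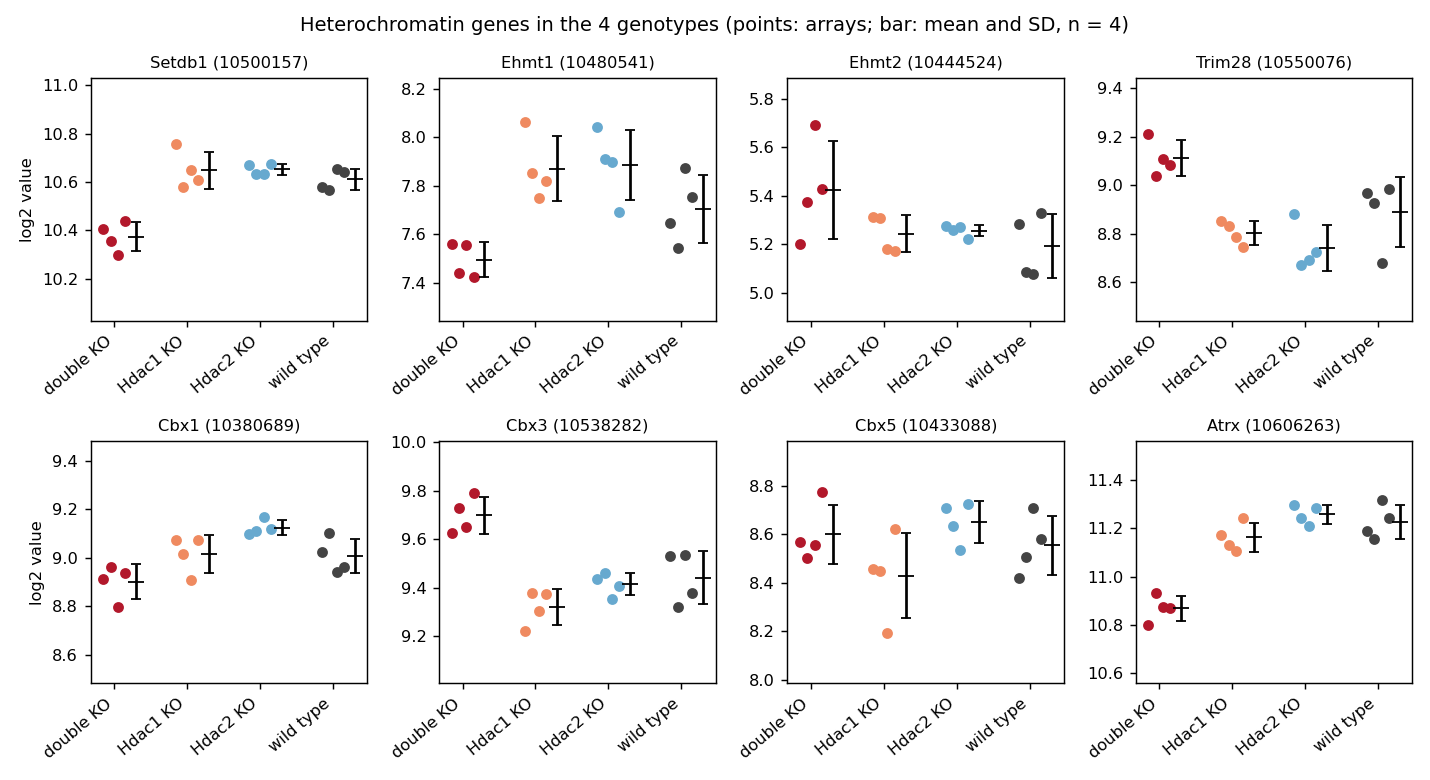
Log2 value (y axis) of the 8 measured genes in each genotype (x axis), with 1 panel a gene. Points are arrays, and the bar beside them is the mean with its SD (n = 4). Double-knockout points lie below all 12 others for Setdb1 and Atrx and above all 12 others for Trim28 and Cbx3.

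Among the enzymes that write the mark, Setdb1 fell. The log2 values of Setdb1 were 10.40, 10.36, 10.30 and 10.44 in double-knockout oocytes, 10.76, 10.58, 10.65 and 10.61 in Hdac1 knockout oocytes, 10.67, 10.63, 10.63 and 10.68 in Hdac2 knockout oocytes and 10.58, 10.57, 10.65 and 10.64 in wild-type oocytes. Every double-knockout array was below every array of the other 3 genotypes, a separation found for 22.5% of all tested probe sets in either direction. The double knockout differed from wild type by -0.24 ± 0.05 (limma SE) on the log2 scale, 0.849 of its level, with a 95% interval of -0.34 to -0.13 and an adjusted p from limma of 0.00132. It was also lower than the Hdac1 knockout (-0.27, limma adjusted p 0.000372) and than the Hdac2 knockout (-0.28, limma adjusted p 0.000445). These calls held in each of the 16 fits that left out 1 array.

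Ehmt1, the partner that forms a heterodimer with EHMT2, separated the double knockout from the single knockouts rather than from wild type. Ehmt1 log2 values were 7.56, 7.44, 7.56 and 7.42 in double-knockout oocytes, 8.06, 7.85, 7.75 and 7.82 in Hdac1 knockout oocytes, 8.04, 7.91, 7.90 and 7.69 in Hdac2 knockout oocytes and 7.65, 7.54, 7.87 and 7.75 in wild-type oocytes. Double-knockout arrays lay below all single-knockout arrays and overlapped the wild-type arrays. Against the Hdac1 knockout the change was -0.38 ± 0.09 (limma adjusted p 0.00221) and against the Hdac2 knockout -0.39 ± 0.09 (limma adjusted p 0.00208). Against wild type it was -0.21, with a 95% interval of -0.39 to -0.02 and a limma adjusted p of 0.0703. That comparison passed when arrays were centred on their medians (-0.30, limma adjusted p 0.0109), with quantile normalization (-0.23, limma adjusted p 0.0436), with dim probe sets left out (limma adjusted p 0.0463) and without wild-type replicate 2 (-0.26, limma adjusted p 0.0323).

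Ehmt2, which carries the stronger catalytic role of the pair, was called higher only narrowly. The arrays read Ehmt2 at 5.20, 5.37, 5.69 and 5.43 in double-knockout oocytes, 5.31, 5.31, 5.18 and 5.17 in Hdac1 knockout oocytes, 5.28, 5.26, 5.27 and 5.22 in Hdac2 knockout oocytes and 5.28, 5.09, 5.08 and 5.33 in wild-type oocytes. The groups overlapped, and double-knockout replicate 3 was the highest of the 16 arrays. The difference from wild type was 0.23 ± 0.09, 1.17-fold, with a 95% interval of 0.05 to 0.42 and a limma adjusted p of 0.0457. The call was lost in 13 of the 16 fits that left out 1 array, and without double-knockout replicate 3 the difference was 0.14 (limma adjusted p 0.171). The differences from the Hdac1 knockout (0.18, limma adjusted p 0.117) and from the Hdac2 knockout (0.17, limma adjusted p 0.156) did not pass.

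Trim28, the scaffold that recruits SETDB1 and HP1, rose in the double knockout against all 3 other genotypes. Its log2 values were 9.21, 9.04, 9.11 and 9.08 in double-knockout oocytes, 8.85, 8.83, 8.78 and 8.74 in Hdac1 knockout oocytes, 8.88, 8.67, 8.69 and 8.73 in Hdac2 knockout oocytes and 8.97, 8.93, 8.68 and 8.98 in wild-type oocytes. The double-knockout arrays overlapped no other group, and wild-type replicate 3 stood below the other wild-type arrays, among the single-knockout values. The double knockout was 0.22 ± 0.07 above wild type, 1.17-fold (limma adjusted p 0.0197). It was 0.31 above the Hdac1 knockout (limma adjusted p 0.00213) and 0.37 above the Hdac2 knockout (limma adjusted p 0.000627). The call against wild type was lost without wild-type replicate 3 (0.15, limma adjusted p 0.0731), without double-knockout replicate 1 (0.19, limma adjusted p 0.064) and with median-centred arrays (0.13, limma adjusted p 0.141). The calls against the single knockouts held in every such fit.

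The 3 HP1 genes differed from one another. Cbx3 (HP1 gamma), the family member found at transcribed genes as well as in heterochromatin, rose. At its brightest probe set, 10538282, the log2 values were 9.63, 9.73, 9.65 and 9.79 in double-knockout oocytes, 9.22, 9.38, 9.31 and 9.37 in Hdac1 knockout oocytes, 9.44, 9.46, 9.35 and 9.41 in Hdac2 knockout oocytes and 9.53, 9.32, 9.54 and 9.38 in wild-type oocytes. All double-knockout arrays were above the 12 others. The difference was 0.26 ± 0.06 from wild type (1.20-fold, limma adjusted p 0.00313), 0.38 from the Hdac1 knockout (limma adjusted p 0.000111) and 0.28 from the Hdac2 knockout (limma adjusted p 0.00186).

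The 7 Cbx3 probe sets gave the same direction with differences from wild type of 0.17 to 0.29, 1.13- to 1.22-fold. Of these, 6 were called and probe set 10405868 was not (limma adjusted p 0.128). Against wild type the call at 10405888 held in 11 of the 16 fits without 1 array, and those at 10405874 and 10410207 in 13. These calls were lost with either other scaling (limma adjusted p between 0.0652 and 0.131). The calls against wild type at 10421573 and 10346549 were lost with median centring (limma adjusted p 0.0658 and 0.105). All 7 were called against the Hdac1 knockout and all 7 against the Hdac2 knockout. In those comparisons the calls at 10405868 were narrow (limma adjusted p 0.046 and 0.0468). Each held in 5 of the 16 fits without 1 array and under 1 of 6 other settings. The 6 were median centring, quantile normalization, dim probe sets left out, all probe sets tested, a mean-variance trend and the replicate block. With the block the calls at 10405868 were lost (limma adjusted p 0.0711 and 0.0733). The call at 10405888 against the Hdac2 knockout held in 10 of the 16 and under 2 of the 6, and was lost with the block (limma adjusted p 0.0575). Against the Hdac1 knockout the call at 10405888 held in 14 of the 16 and under 4 of the 6. Probe sets 10405874 and 10410207 held identical values on every array, so the 7 give 6 distinct measurements. In 3 of the 4 groups the same arrays stood at the ends at all 7: replicate 4 was the highest and replicate 1 the lowest in the double knockout, replicates 2 and 3 in the Hdac2 knockout and replicates 3 and 2 in wild type. In the Hdac1 knockout the ends changed from one probe set to the next. RefSeq lists 6 Cbx3 pseudogenes in this genome, and which probe sets also match their sequences was not tested, so signal from the gene and from its copies cannot be told apart here.

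**Figure D2:**
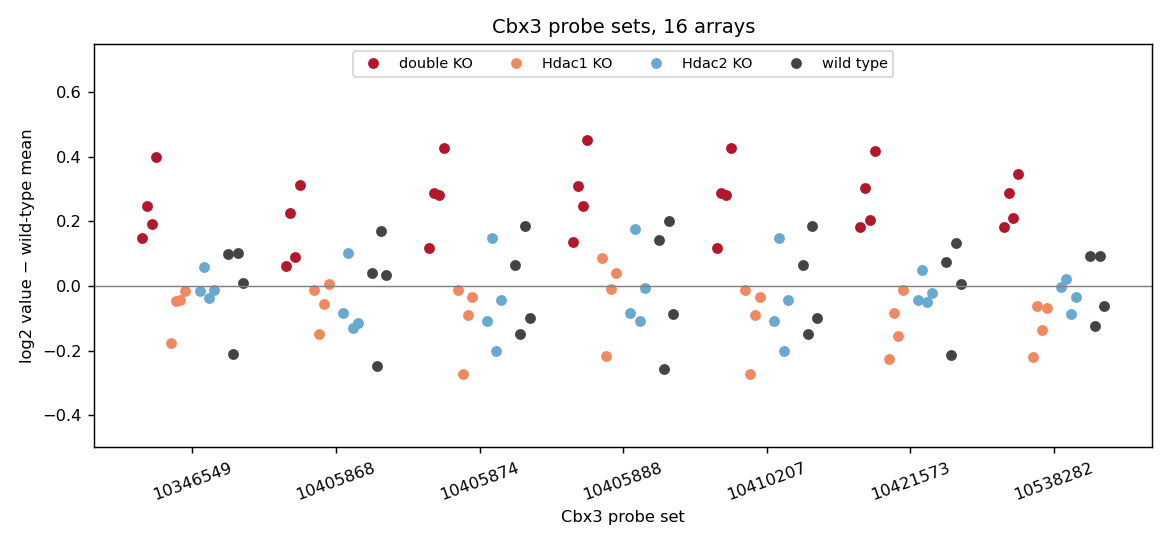
Log2 value minus the wild-type mean of the same probe set (y axis) for the 7 Cbx3 probe sets (x axis), with each of the 16 arrays as a point coloured by genotype. The double-knockout points are shifted upwards at every probe set, with mean differences of 0.17 to 0.29, and the spread among the 4 wild-type arrays recurs from one probe set to the next.

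Cbx1 (HP1 beta), a general constituent of pericentric heterochromatin, was called in 1 of the double-knockout comparisons. Its log2 values were 8.91, 8.96, 8.80 and 8.94 in double-knockout oocytes, 9.07, 9.01, 8.91 and 9.07 in Hdac1 knockout oocytes, 9.10, 9.11, 9.17 and 9.12 in Hdac2 knockout oocytes and 9.02, 9.10, 8.94 and 8.96 in wild-type oocytes. The double-knockout arrays overlapped wild type and the Hdac1 knockout and lay wholly below the Hdac2 knockout. The difference was -0.22 ± 0.06 from the Hdac2 knockout (limma adjusted p 0.00506), -0.11 from wild type (limma adjusted p 0.158) and -0.11 from the Hdac1 knockout (limma adjusted p 0.121). With median-centred arrays both of the last were called, at -0.20 from wild type (limma adjusted p 0.0119) and -0.19 from the Hdac1 knockout (limma adjusted p 0.0139). The difference from the Hdac1 knockout was also called with quantile normalization (limma adjusted p 0.0486) and without Hdac1 knockout replicate 3 (limma adjusted p 0.0494).

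Cbx5 (HP1 alpha), the member most closely tied to constitutive heterochromatin, passed no comparison. The log2 values of Cbx5 were 8.57, 8.50, 8.55 and 8.78 in double-knockout oocytes, 8.46, 8.45, 8.19 and 8.62 in Hdac1 knockout oocytes, 8.71, 8.63, 8.54 and 8.73 in Hdac2 knockout oocytes and 8.42, 8.51, 8.71 and 8.58 in wild-type oocytes. All 4 groups overlapped. The double knockout differed from wild type by 0.05, with a 95% interval of -0.14 to 0.23 and a limma adjusted p of 0.742, an interval wide enough to hold a rise of the size estimated for Trim28.

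Atrx had the largest change against wild type of the 14 probe sets and fell. Its log2 values were 10.80, 10.93, 10.87 and 10.87 in double-knockout oocytes, 11.17, 11.13, 11.10 and 11.24 in Hdac1 knockout oocytes, 11.29, 11.24, 11.21 and 11.28 in Hdac2 knockout oocytes and 11.19, 11.16, 11.32 and 11.24 in wild-type oocytes. All double-knockout arrays were below the 12 others. The difference was -0.36 ± 0.05 from wild type, 0.780 of its level, with a 95% interval of -0.47 to -0.25 and a limma adjusted p of 3.23e-05. It was -0.29 from the Hdac1 knockout (limma adjusted p 0.000216) and -0.39 from the Hdac2 knockout (limma adjusted p 2.17e-05). These calls held in all 16 fits without 1 array and with either other scaling, although the changes stayed under 1.4-fold.

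Loss of 1 deacetylase alone moved none of the 14 probe sets past the threshold. Between Hdac1 knockout and wild-type oocytes limma called 0 of 14, against 0.0707% of all tested probe sets, and 0 of 14 had an unadjusted p under 0.05, against 8.70% of all. The changes ran between -0.12 and 0.17. Between Hdac2 knockout and wild-type oocytes limma again called 0 of 14, against 5.59% of all, and 0 of 14 had an unadjusted p under 0.05, against 18.5% of all. Those changes ran between -0.15 (Trim28) and 0.18 (Ehmt1). In the Hdac2 knockout Ehmt1, Cbx1 and Trim28 lay just over the unadjusted cut (limma unadjusted p 0.0524, 0.0525 and 0.0534). Cbx3 makes up 7 of the 14, so these counts of 0 do not set the genes apart from the rest. At Ehmt1 the 95% intervals were -0.02 to 0.35 in the Hdac1 knockout and -0.0021 to 0.37 in the Hdac2 knockout, which leave room for increases as large as the changes seen in the double knockout. At Setdb1 they were narrower, -0.07 to 0.15 and -0.07 to 0.15, and at Atrx -0.17 to 0.05 and -0.08 to 0.14.

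The single knockouts did not differ from each other at any of the 14 probe sets after adjustment, against 5.78% of all tested. Cbx5 had the smallest p, with a difference of -0.22 (Hdac1 knockout minus Hdac2 knockout, unadjusted p 0.024, limma adjusted p 0.177), and it was the 1 probe set of the 14 at an unadjusted p under 0.05. Cbx1 was lower in every Hdac1 knockout array than in every Hdac2 knockout array by -0.11 on average, a separation found for 12.5% of tested probe sets, and did not pass (limma adjusted p 0.327).

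The double knockout was set directly against each single knockout as well. Against the Hdac1 knockout 11 of 14 probe sets and 5 of 8 genes were called (38.7% of all tested), with Trim28 and Cbx3 higher and Ehmt1, Setdb1 and Atrx lower. Against the Hdac2 knockout 12 of 14 and 6 of 8 were called (33.7% of all tested), the same 5 genes plus Cbx1. Atrx, Setdb1, Trim28 and Cbx3 were called in the same direction against all 3 other genotypes at 9 probe sets in all, against 26.3% of tested probe sets. These 3 comparisons share the double-knockout arrays, and those against wild type share the wild-type arrays, so their calls are not independent of one another.

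**Figure D3:**
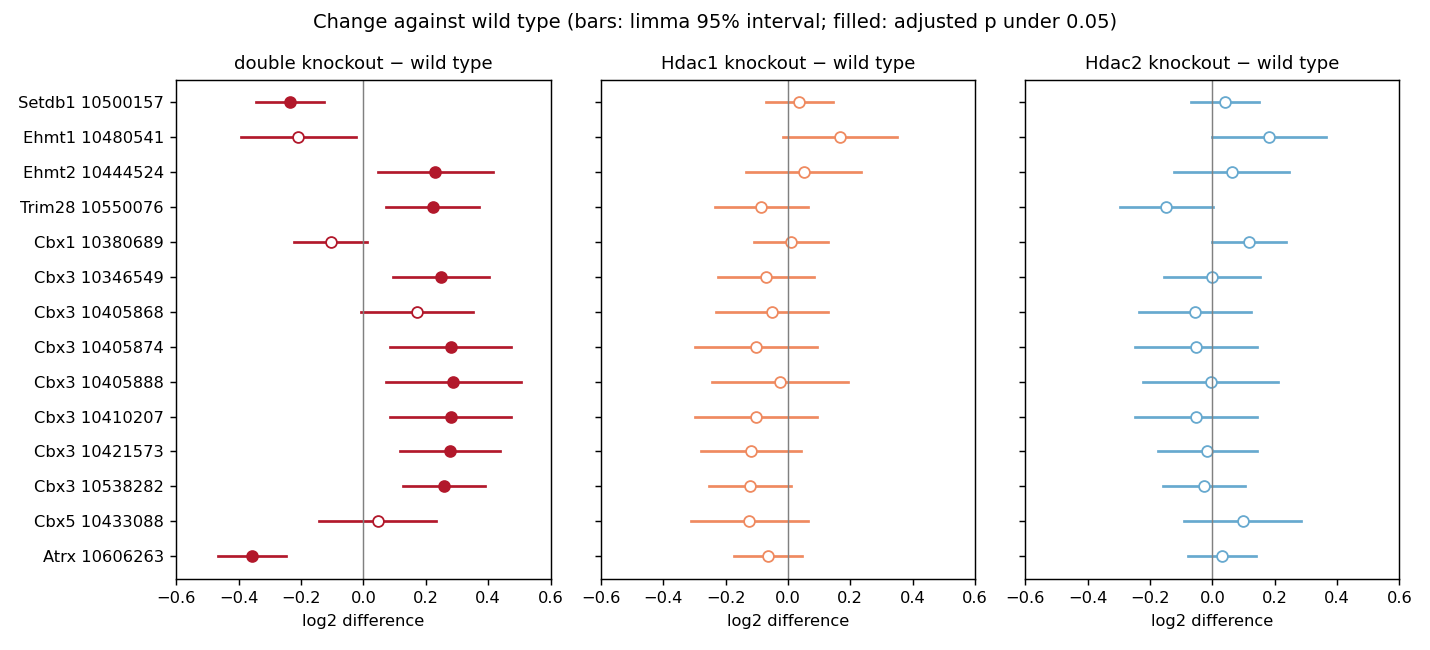
Log2 difference from wild type (x axis) of the 14 probe sets (rows) in the double, Hdac1 and Hdac2 knockouts (panels left to right), with limma's 95% interval as the bar. Filled points passed at an adjusted p under 0.05: 10 in the double knockout and 0 in each single knockout.

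The interaction contrast asks whether the double-knockout change equals both single-knockout changes added together, in log2 units. It was called at 10 of 14 probe sets and 6 of 8 genes, against 23.3% of all tested probe sets, dim and bright alike. Ehmt1 had the largest interaction, -0.56 ± 0.12 (limma adjusted p 0.00335), and was the 1 probe set of the 14 past 1.4-fold in this contrast. At Ehmt1 the difference made by the Hdac1 deletion was -0.39 in oocytes without Hdac2 and 0.17 in oocytes with it, and the difference made by the Hdac2 deletion was -0.38 without Hdac1 and 0.18 with it. At Trim28 the signs ran the other way: the difference made by the Hdac1 deletion was 0.37 without Hdac2 and -0.09 with it, for an interaction of 0.45 ± 0.10 (limma adjusted p 0.00332). For these genes the single-knockout changes that enter the contrast did not pass on their own.

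The interaction was 0.41 ± 0.09 at Cbx3 probe set 10538282 (limma adjusted p 0.003), -0.32 ± 0.07 at Atrx (limma adjusted p 0.00392) and -0.31 ± 0.07 at Setdb1 (limma adjusted p 0.00454). At Cbx1 it was -0.23 ± 0.08 (limma adjusted p 0.0435), and that call was lost in 12 of the 16 fits without 1 array. Ehmt2 (0.12, limma adjusted p 0.554) and Cbx5 (0.07, limma adjusted p 0.739) did not pass. Of the 7 Cbx3 probe sets, 5 passed, with 7 values between 0.28 and 0.43.

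Related genes of the pathway included some with larger changes. Of 53 related genes in 4 lists, 51 were measured, and between double-knockout and wild-type oocytes 10 of the 51 were higher and 19 lower, 56.9% in all, against the 38.3% of tested probe sets. The median change over the 51 was 0.01. Each of the 51 was taken at its brightest probe set, whereas the 38.3% is over dim and bright probe sets alike. The 56.9% and the 38.3% are therefore not like for like, and an excess among these genes was not tested. The lists were assembled with earlier results of these data known, and these shares are descriptions.

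Among 10 other H3K9 methyltransferases and their cofactors, 1 was higher, 6 were lower and 3 did not pass, with a median of -0.22. Mecom, a PRDM-family transcription factor, averaged 4.45 ± 0.29 in double-knockout and 5.52 ± 0.27 in wild-type oocytes (SD, n = 4), a difference of -1.07 (limma adjusted p 2.37e-05). Its other probe set differed by -0.14 and did not pass (limma adjusted p 0.101). The double-knockout mean of Mecom lay below the medians of those arrays, 4.54 to 4.59, so this fall ended among dim values. Setdb2, a relative of SETDB1, averaged 7.79 ± 0.20 in double-knockout and 8.33 ± 0.14 in wild-type oocytes, a difference of -0.55 (limma adjusted p 0.000129). Cdyl, a chromodomain protein that binds methylated H3K9, fell by 0.45 (limma adjusted p 0.000422). Zfp644, a zinc finger partner of the EHMT1-EHMT2 complex, fell by 0.35 (limma adjusted p 0.000692).

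The H3K9 demethylases moved in both directions and included Kdm3a, the largest change of the 4 lists. Of 10, 3 were higher, 5 were lower and 2 did not pass, with a median of -0.12. Kdm3a, which removes mono- and dimethylation and is induced by low oxygen in many cells, averaged 7.88 ± 0.11 in double-knockout, 6.27 ± 0.11 in Hdac1 knockout, 6.62 ± 0.06 in Hdac2 knockout and 6.32 ± 0.10 in wild-type oocytes, 2.95-fold higher in the double knockout than in wild type (limma adjusted p 3.95e-11). Kdm4c, which removes trimethylation, averaged 6.97 ± 0.12, 6.01 ± 0.18, 6.55 ± 0.16 and 6.05 ± 0.15 in the same order of groups, 1.90-fold higher in the double knockout (limma adjusted p 1.9e-06). Both were also higher in the Hdac2 knockout than in wild type, Kdm3a by 0.30 (limma adjusted p 0.0172) and Kdm4c by 0.50 (limma adjusted p 0.00878). Kdm4a, another trimethyl demethylase, fell by 0.55 (limma adjusted p 4.19e-06). Jmjd1c, of the same family as Kdm3a, fell by 0.60 (limma adjusted p 8.89e-06) and fell by 0.31 at its other probe set (limma adjusted p 0.00047).

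Of the TRIM28 partners and HUSH complex genes, 11 of 12 were measured, 2 were higher, 4 were lower and 5 did not pass, with a median of -0.04. Zfp809, a KRAB zinc finger protein that recruits TRIM28 to retroviral primer binding sites in mouse embryonic stem cells, averaged 8.28 ± 0.21 in double-knockout and 7.61 ± 0.25 in wild-type oocytes, a difference of 0.67 (limma adjusted p 0.00322). Morc2a, whose human counterpart is an ATPase that works with the HUSH complex, was higher by 0.24 (limma adjusted p 0.00876), a call lost with median-centred arrays (0.15, limma adjusted p 0.0976). Smarcad1, a remodeller that interacts with TRIM28, fell by 0.44 (limma adjusted p 3e-05), and Morc3, an ATPase that takes part in silencing of endogenous retroviruses, fell by 0.29 (limma adjusted p 0.00232).

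Of the genes for heterochromatin structure and H4K20 methylation, 20 of 21 were measured, 4 were higher, 4 were lower and 12 did not pass, with a median of 0.04. The nuclear envelope genes differed in direction. Lmnb1, which encodes lamin B1, averaged 8.65 ± 0.05 in double-knockout and 8.07 ± 0.10 in wild-type oocytes, a difference of 0.58 (limma adjusted p 1.43e-06). Lbr, the inner membrane receptor that binds lamin B and HP1, averaged 10.35 ± 0.13 in double-knockout and 10.89 ± 0.15 in wild-type oocytes, a difference of -0.54 (limma adjusted p 0.000147). Lmna, which encodes lamins A and C, fell by 0.44 (limma adjusted p 0.000243), and Kmt5a, the H4K20 monomethyltransferase, fell by 0.24 (limma adjusted p 0.00162).

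In the Hdac1 knockout limma called 0 of the 51 related genes, against 0.0707% of all tested, and 6 (11.8%) had an unadjusted p under 0.05, against 8.70% of all. In the Hdac2 knockout 4 of the 51 were called, 7.84%, against 5.59% of all tested, and all 4 were higher: Kdm3a, Kdm4c, Morc2a (0.25, limma adjusted p 0.0342) and Lmnb1 (0.22, limma adjusted p 0.0462). That count was 2 with median-centred arrays and 1 without wild-type replicate 2, without wild-type replicate 4 or without Hdac2 knockout replicate 4.

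**Figure D4:**
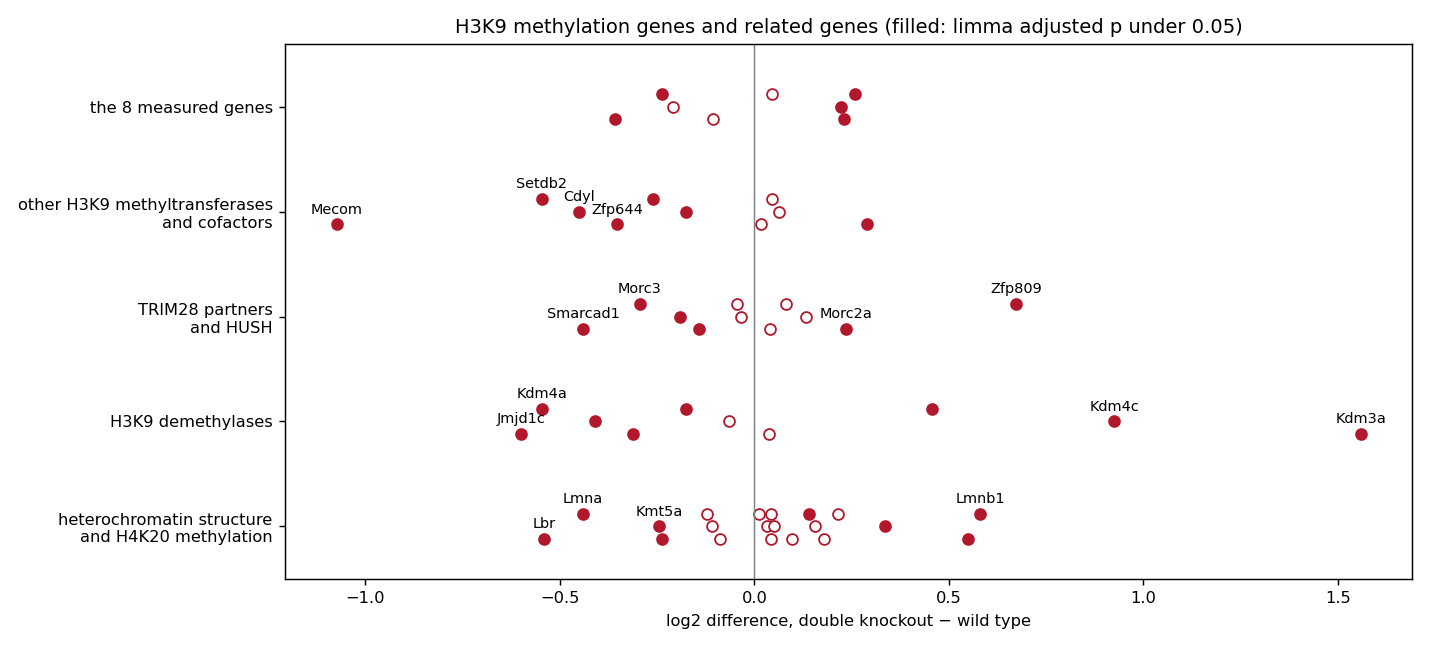
Log2 difference between double-knockout and wild-type oocytes (x axis) for the 8 measured genes, each at its brightest probe set, and for the 4 lists of related genes (rows). Filled points passed at an adjusted p under 0.05 and the named related genes are labelled. The 8 lie between -0.36 and 0.26, inside the -1.07 (Mecom) to 1.56 (Kdm3a) spanned by the related genes.

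Finally, the genes whose 3 changes from wild type were nearest those of a heterochromatin gene were sought over the 4 genotypes by root mean square difference on the log2 scale, for the 3 probe sets with the largest change in the double knockout. For Atrx they were Kif3a (0.0105), Wapl (0.0112) and Nsd2 (0.0134), and 119 probe sets of other genes lay within 0.05. For Cbx3 probe set 10405888 they were Crnn (0.0098), Zfp280c (0.011) and Tgfbr1 (0.0116), with 343 within 0.05, and for 10405874 they were Srgap2 (0.0098), Ssr1 (0.0115) and Pias2 (0.0151), with 181 within 0.05. Crnn and Zfp280c did not pass in the double knockout against wild type (limma adjusted p 0.241 and 0.054). Patterns this close were common in the table, and 3 changes that share their wild-type arrays are few points on which to match genes.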

How the data were processed

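Per the labels, total RNA of 80 pooled oocytes a sample was amplified, biotin-labelled and hybridised to 16 Affymetrix Mouse 1.1 ST arrays, 4 for each of 4 genotypes. The deposited table gives 1 value per probe set and array on a log scale taken as log2, without missing values. The base was inferred from the range of 2.07 to 12.89 and is not stated. MAS5 appears per the submitters' processing notes, and the design text also names GeneSpring, SAM and EASE. Which of them made the values, and how, is not stated. The values were used as deposited. Their precision is limited by the number of arrays.

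Probe sets were named from the platform's annotation (1 symbol for 21218, several for 1881, none for 12457). The 16 arrays were fitted together, with 1 mean for each genotype, in limma 3.58.1 in R 4.3.3 (lmFit, 7 contrasts, eBayes, 12 residual degrees of freedom). Two-sided p-values were adjusted by Benjamini-Hochberg over the 21218, with calls at an adjusted p under 0.05. The fit was tested on simulated data with known changes and independent noise. Those data held no difference in scaling between arrays, so the test does not bear on that. Errors are limma SEs unless given as SD over 4 arrays. A related gene was represented by its brightest probe set, and from each list the 4 genes of lowest adjusted p between double-knockout and wild-type oocytes were named. Linear sums of markers are sums of 2 to the power of the value. Promoters, pseudogene names and motif shares came from RefSeq tables of assembly GRCm38.p6, with 250 upstream bases. Replicate numbers did not pair the arrays, so no block was used. Alternatives were other scalings, dim probe sets left out, all probe sets, a mean-variance trend, a replicate block, a 1.4-fold limit, the 2 compared groups alone and each array left out. Members and lists were chosen with earlier results of these data known.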

Additional observations from a re-analysis of the deposited data

Results flagged for a closer look

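For 10 of the 14 probe sets the effect of deleting 1 deacetylase differed with the presence of the other. The test was limma's interaction contrast at an adjusted p under 0.05. That contrast was called at 23.3% of all tested probe sets, dim and bright alike, and an excess among the 14 was not tested. A negative value means that the double knockout lay below both single-knockout changes added together, in log2 units. The interaction was -0.56 at Ehmt1, -0.32 at Atrx, -0.31 at Setdb1 and -0.23 at Cbx1. It was 0.45 at Trim28. At Cbx3 it was 0.32 for probe set 10346549, 0.43 for 10405874 and for 10410207, which hold identical values, and 0.41 for 10421573 and for 10538282.

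The Hdac2 deletion in oocytes that lacked Hdac1 gave differences of -0.38 at Ehmt1, -0.29 at Atrx, -0.27 at Setdb1, -0.11 at Cbx1 and 0.31 at Trim28. In oocytes with Hdac1 the same deletion gave 0.18 at Ehmt1, 0.03 at Atrx, 0.04 at Setdb1, 0.12 at Cbx1 and -0.15 at Trim28. The calls at Ehmt1, Atrx, Setdb1, Trim28 and Cbx3 probe set 10538282 held in all 16 fits that left out 1 array and under 6 others (median centring, quantile normalization, dim probe sets left out, all probe sets tested, a mean-variance trend and the replicate block). A limit of 1.4-fold kept Ehmt1 alone of the 14. At Cbx1 the call held in 4 of the 16 fits and under 4 of the 6 others. At Cbx3 probe set 10346549 it held in 7 of the 16 and under 3 of the 6, and was lost with median centring (0.27, limma adjusted p 0.0771), with all probe sets tested (limma adjusted p 0.0509) and with the replicate block (limma adjusted p 0.0503).

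In 56 sets of 4 arrays (14 probe sets in 4 genotypes), Dixon's test at the 95% level marked no array as lying apart from its group, where chance would mark about 5% of such sets.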

How the results depend on the processing

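Each heterochromatin probe set was refitted in each comparison under 22 alternatives, the 16 fits without 1 array and 6 others: median centring, quantile normalization, dim probe sets left out, all probe sets tested, a mean-variance trend and the replicate block. Of the 2156 values, 1969 kept direction and side of the threshold, 55 that passed under neither setting changed sign, 120 lost the call, 12 gained it and 0 called values changed sign. The Atrx and Setdb1 calls in the double knockout against the other 3 genotypes held under all 22. Median-centred arrays gave 5 calls of 14 in the double knockout against wild type (1 higher, 4 lower). There the Trim28 and Ehmt2 calls and those of all Cbx3 probe sets but 10538282 were lost, and Ehmt1 and Cbx1 were called. Centring moved each of these changes by about -0.09, and why the array medians differed was not tested.

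The 1.4-fold limit, which by its construction removes small changes, left 0 of 14 in the double knockout against wild type, against the Hdac1 knockout and against the Hdac2 knockout, and 1 in the interaction. Over all tested probe sets it left 3472, 3518, 2576 and 2685 in the same order, 454 between the Hdac2 knockout and wild type and 469 between the single knockouts. With dim probe sets left out, 24 of the brighter probe sets were called between the Hdac1 knockout and wild type, against 15 of all. Median centring split the calls over all tested probe sets into 3066 higher and 6238 lower for the double against the Hdac1 knockout (3964 and 4256 as deposited), 2734 and 4941 against the Hdac2 knockout (3566 and 3589) and 443 and 763 for the Hdac2 knockout against wild type (606 and 581).

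Leaving out 1 array at a time gave 6 to 10 calls of 14 in the double knockout against wild type (6 without double-knockout replicate 4), 9 to 12 against the Hdac1 knockout, 9 to 13 against the Hdac2 knockout and 6 to 12 in the interaction (6 without Hdac2 knockout replicate 3). Over all tested probe sets it gave 10 to 30 between the Hdac1 knockout and wild type (30 without Hdac1 knockout replicate 4), 683 to 1267 between the Hdac2 knockout and wild type and 678 to 1364 between the single knockouts. Related genes, whose alternatives were chosen after seeing the data, gave 26 to 30 calls of 51 in the double knockout. In the Hdac2 knockout they gave 1 to 4, and 2 each with median-centred arrays, with all probe sets tested and with the replicate block.

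Same-numbered arrays of different genotypes did not deviate together: their correlations were -0.1483 to 0.0866 over 24 pairs, and 0 exceeded 0.1. Among 72 pairs with different numbers, correlations were -0.1237 to 0.2038 and 3 exceeded 0.1. A grouping of arrays other than by replicate number was not tested. With the replicate block the calls of 14 were 8 in the double knockout against wild type, 10 against each single knockout and 8 in the interaction, and Ehmt2 was not called (0.23, limma adjusted p 0.0762). How far probe sets stood above background was not given by the table, so no limit from signal strength is stated.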
